A study of Homo sapiens with 8 samples.

Results

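Caveolae are small flask-shaped pits of the plasma membrane. Caveolins (CAV1, CAV2) sit in the membrane and form its scaffold, and cavins (CAVIN1, CAVIN2, CAVIN3) assemble into a coat on the cytosolic side. EHD2, an ATPase, holds the pit at its neck, and PACSIN2 bends the membrane through its F-BAR domain. Caveolae are best known from endothelial cells, adipocytes, fibroblasts and muscle, and CAVIN2, which binds phosphatidylserine and protein kinase C, was first purified from platelets. The transcripts of these 7 genes were examined in Kasumi-1 cells, a human line established from acute myeloid leukemia with the AML-ETO fusion.

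All probe sets listed with exactly 1 gene symbol for the 7 genes were taken, which gave 17 of the 54613 probe sets on the array. CAVIN2 had 2, CAVIN1 3, CAVIN3 1, CAV1 2, CAV2 3, EHD2 3 and PACSIN2 3. The 7 genes were brought together because CAVIN2 rose after NR4A1 WT in these arrays, so its values in comparisons with NR4A1 WT are given as a description with no test. The 6 other genes, called partners here for their place in the caveola, have 15 probe sets and were tested.

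Cells were electroporated with in vitro transcribed RNA (IVT-RNA) and RNA was taken after 6 h. The groups were NR4A1 WT, which encodes the wild type orphan nuclear receptor (3 arrays), NR4A1 CEAA, in which mutations of a zinc finger abolish DNA binding (2 arrays), and GFP as the control (3 arrays). NR4A1 here came from electroporated RNA in a single cell line, and whether replicates were separate electroporations is not given in the sources used here, so p-values cover the spread among these 8 arrays alone, which may be technical. The question was which caveola transcripts NR4A1 WT changed, and whether NR4A1 CEAA changed them too.

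Values are log2 probe set signals normalized by Robust Multiarray Analysis (RMA), with array medians of 4.75 to 4.80. Probe sets differ in brightness for the same amount of RNA, so levels are compared between arrays and not between genes. No detection call was at hand, and 16 probe sets for genes of unrelated tissues (8 genes such as albumin, insulin and glucagon), which spanned 2.57 to 5.75, served as a guide to dim signal. Of the 17 caveola probe sets, 10 stayed within that range on every array. NR4A1 itself read 5.24 to 6.61 with NR4A1 WT, 5.27 to 6.56 with NR4A1 CEAA and 5.06 to 6.66 with GFP over 3 probe sets, whose position relative to the coding RNA is not known here, so they check nothing about the group names. Markers of the labelled myeloid blast are given by the brightest probe set of each gene. MPO read 14.34 to 14.43, KIT 13.45 to 13.78 and RUNX1T1 11.07 to 11.61. PTPRC read 9.83 to 10.60, CD34 7.44 to 7.88 and SPI1 5.72 to 6.89, whose lower end touches the dim range. The SPI1 mean was 5.87 with NR4A1 WT, 6.30 with NR4A1 CEAA and 6.85 with GFP, and the PTPRC mean 10.46, 10.43 and 9.95. All 17 probe sets of these markers (6 of 8 genes measured) ran from 2.63 to 14.43. Of the 17, 2 were higher and 4 lower with NR4A1 WT against GFP. Over all probe sets 5.06% were higher and 5.56% lower in that comparison.

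CAVIN2 lies on chromosome 2. The 250 bases before its RefSeq start (GRCh38.p14, chr2:191847089-191847338, minus strand) are shown because CAVIN2 is the member that differed most between groups and NR4A1 acts by binding DNA. Capitals mark the only match to the letters searched.

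CAVIN2: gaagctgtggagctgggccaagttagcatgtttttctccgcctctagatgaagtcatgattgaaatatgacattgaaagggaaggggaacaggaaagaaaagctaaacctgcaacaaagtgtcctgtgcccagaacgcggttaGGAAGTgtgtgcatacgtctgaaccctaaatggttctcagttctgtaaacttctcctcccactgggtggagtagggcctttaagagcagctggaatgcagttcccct

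ETS and RUNX proteins are transcription factors of blood cells. Both strands were searched for the NR4A1 monomer site NBRE (AAAGGTCA), an ETS site (GGAAGT) and a RUNX site (TGTGGT). The ETS letters began at position -107 from the start, on the forward strand. They occur in 19.5% of 35116 promoters of the same length, against 1.05% for NBRE and 11.0% for RUNX. Of the 7 genes, 5 had an entry, with 13 starts in all. The NBRE letters were in 0 of the 13. The ETS letters were also before 1 of 6 PACSIN2 starts, and the RUNX letters before 1 of 3 CAV1 and 1 of 2 CAV2 starts. A match describes letters only and not a bound site. The search covered only the bases just before each start. The paper names CAVIN2, under its older symbol SDPR, as an example of an induced gene with an NR4A1 binding site. That site came from sequencing of DNA bound by NR4A1. The paper also places most binding sites of regulated genes distal to the start. NR4A1 sites outside the searched bases were not tested here.

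CAVIN2 was high with NR4A1 WT and low in every other array. Probe set 222717_at read 7.91, 7.63 and 7.54 with NR4A1 WT, 4.13 and 4.23 with NR4A1 CEAA, and 4.55, 4.40 and 4.36 with GFP. The NR4A1 WT arrays did not overlap either other group, and they placed this probe set at percentiles 79.1 to 81.5 of all probe sets, against 36.4 and 39.1 with NR4A1 CEAA and 42.1 to 45.8 with GFP. The mean was 7.69 ± 0.20 (SD, n = 3) with NR4A1 WT, 4.18 ± 0.07 (SD, n = 2) with NR4A1 CEAA and 4.43 ± 0.10 (SD, n = 3) with GFP. NR4A1 WT was thus 3.26 above GFP on the log2 scale (SE 0.10, 95% interval 3.02 to 3.50), a 9.57-fold signal. Against NR4A1 CEAA the difference was 3.51 (SE 0.12), an 11.4-fold signal. The GFP and NR4A1 CEAA values lay inside the dim range, so these folds are ratios to a signal not shown to be above background.

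The other CAVIN2 probe set had the same order and a smaller difference. Probe set 218711_s_at read 6.09, 6.53 and 5.68 with NR4A1 WT, 3.90 and 4.07 with NR4A1 CEAA, and 4.45, 3.96 and 4.19 with GFP. Its lowest NR4A1 WT array was under the top of the dim range and still above every array of the other groups. NR4A1 WT was 1.90 above GFP (SE 0.20, 95% interval 1.44 to 2.36), a 3.73-fold signal, and 2.11 above NR4A1 CEAA (SE 0.23), a 4.32-fold signal. The replicate spread with NR4A1 WT was 0.42 (SD, n = 3) here, against 0.20 for 222717_at. These are bulk measurements, in which more cells with the transcript and more transcript per cell cannot be told apart.

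The DNA binding mutant gave no such rise in CAVIN2. The genes were chosen for the rise with NR4A1 WT, but with earlier results of these data known. The mutant is also compared with the same GFP arrays that entered that choice. NR4A1 CEAA differed from GFP by -0.25 in 222717_at (SE 0.12, 95% interval -0.52 to 0.01, adjusted p = 0.207, limma) and by -0.21 in 218711_s_at (SE 0.23, 95% interval -0.73 to 0.30, adjusted p = 0.617, limma). In 222717_at both NR4A1 CEAA arrays lay below all 3 GFP arrays, and in 218711_s_at the groups overlapped. GFP and NR4A1 CEAA are therefore neighbors in level that did not pass the test of a difference.

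**Figure D1:**
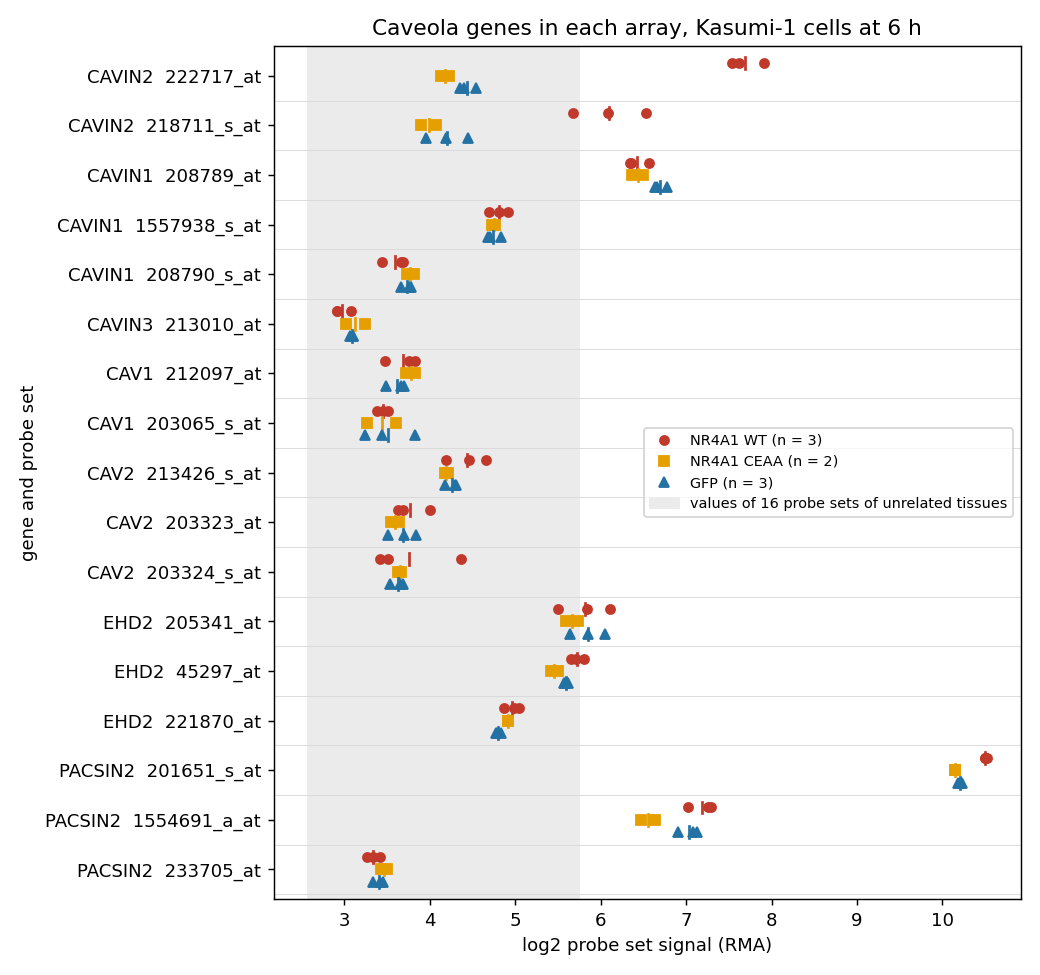
Log2 RMA signal (horizontal axis) of the 17 caveola probe sets (rows), 1 point per array, with vertical ticks at group means and a grey band for the 2.57 to 5.75 range of 16 probe sets of unrelated tissues. The 3 NR4A1 WT arrays of CAVIN2 222717_at stand at 7.54 to 7.91, apart from 4.13 to 4.55 in the other arrays, while the points of most other rows lie close together.

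CAVIN1, without which caveolae do not form, showed no rise beside CAVIN2. Its bright probe set 208789_at read 6.36, 6.34 and 6.57 with NR4A1 WT, 6.50 and 6.37 with NR4A1 CEAA, and 6.66, 6.78 and 6.63 with GFP. All arrays of both NR4A1 groups lay below all GFP arrays, by means of -0.27 for NR4A1 WT (SE 0.08, adjusted p = 0.0871, limma) and -0.25 for NR4A1 CEAA (SE 0.09, adjusted p = 0.123, limma). Neither passed the test, and both differences rest on the same 3 GFP arrays. The NR4A1 WT value passed at -0.34 (adjusted p = 0.0375) without NR4A1 WT replicate 3, and with fewer probe sets tested (adjusted p = 0.0357 with a filter on dim ones and 0.0491 with 1 per gene). The dim probe sets 1557938_s_at and 208790_s_at read 4.68 to 4.91 and 3.44 to 3.81 over the 8 arrays and passed in no comparison.

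CAVIN3, which binds protein kinase C delta and joins CAVIN1 in the coat, was dim in every array. Its single probe set 213010_at read 2.92, 3.08 and 2.91 with NR4A1 WT, 3.24 and 3.01 with NR4A1 CEAA, and 3.11, 3.11 and 3.06 with GFP. NR4A1 WT differed from GFP by -0.12 (SE 0.08, 95% interval -0.31 to 0.06, adjusted p = 0.434, limma), with overlapping groups.

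The caveolins were dim in all groups. CAV1, the principal caveolin outside striated muscle, read 3.47 to 3.82 with NR4A1 WT, 3.73 and 3.83 with NR4A1 CEAA and 3.48 to 3.70 with GFP in probe set 212097_at. In 203065_s_at it read 3.39 to 3.51 with NR4A1 WT, 3.27 and 3.61 with NR4A1 CEAA and 3.24 to 3.83 with GFP. Over the CAV1 probe sets the 95% intervals of NR4A1 WT minus GFP ran from -0.39 to 0.30, and the lowest adjusted p was 0.774 (limma).

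CAV2 pairs with CAV1 in the membrane scaffold, and the genes are neighbors on chromosome 7. Its brightest probe set 213426_s_at read 4.19, 4.46 and 4.66 with NR4A1 WT, 4.18 and 4.21 with NR4A1 CEAA, and 4.18, 4.30 and 4.29 with GFP. NR4A1 WT was 0.24 above NR4A1 CEAA (SE 0.12, adjusted p = 0.214, limma), a value that passed at 0.37 (adjusted p = 0.0267) only without NR4A1 WT replicate 1. In 203324_s_at NR4A1 WT replicate 2 read 4.36, against 3.51 and 3.42 in the other NR4A1 WT arrays, 3.67 and 3.63 with NR4A1 CEAA and 3.53 to 3.69 with GFP. That array was also the highest in 203323_at, at 4.01. No CAV2 probe set passed in any comparison, and the intervals of NR4A1 WT minus GFP ran from -0.35 to 0.62.

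EHD2 lay around the top of the dim range and differed little. Probe set 45297_at read 5.66, 5.71 and 5.80 with NR4A1 WT, 5.50 and 5.42 with NR4A1 CEAA, and 5.58, 5.62 and 5.58 with GFP. The groups did not overlap, with GFP between the NR4A1 forms. NR4A1 WT was 0.26 above NR4A1 CEAA (SE 0.07, adjusted p = 0.0302, limma), a 1.20-fold signal. Neither form differed from GFP past the test, at 0.13 for NR4A1 WT (adjusted p = 0.278) and -0.13 for NR4A1 CEAA (adjusted p = 0.296, limma). The call between the NR4A1 forms was lost when any of 5 arrays was left out (GFP replicate 1, adjusted p = 0.0509; NR4A1 WT replicate 2, 0.0536; NR4A1 WT replicate 3, 0.0778; NR4A1 CEAA replicate 1, 0.0819; NR4A1 CEAA replicate 2, 0.191) and with a trend in eBayes (0.0762). The other EHD2 probe sets, 205341_at at 5.50 to 6.11 and 221870_at at 4.77 to 5.04, passed in no comparison.

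PACSIN2 was the one partner with a rise against GFP that passed the test. Probe set 201651_s_at read 10.49, 10.50 and 10.52 with NR4A1 WT, 10.15 and 10.15 with NR4A1 CEAA, and 10.21, 10.23 and 10.19 with GFP. The 3 groups did not overlap, and the arrays within a group lay close together. NR4A1 WT was 0.30 above GFP (SE 0.06, 95% interval 0.17 to 0.42, adjusted p = 0.00962, limma), a 1.23-fold signal, and 0.35 above NR4A1 CEAA (SE 0.06, adjusted p = 0.00361, limma), a 1.28-fold signal. NR4A1 CEAA differed from GFP by -0.06 (SE 0.06, adjusted p = 0.620, limma). Both calls with NR4A1 WT held without each array in turn, and neither passed Rank Product, the rank test of the study's methods (q = 0.619 against GFP and 0.598 against NR4A1 CEAA).

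A different PACSIN2 probe set moved with the mutant. Probe set 1554691_a_at read 7.03, 7.25 and 7.29 with NR4A1 WT, 6.64 and 6.48 with NR4A1 CEAA, and 6.90, 7.08 and 7.13 with GFP. NR4A1 CEAA was below both other groups in every array, while NR4A1 WT and GFP overlapped. NR4A1 CEAA fell by 0.48 against GFP (SE 0.11, adjusted p = 0.0231, limma), a 1.39-fold signal difference, and NR4A1 WT was 0.63 above NR4A1 CEAA (SE 0.11, adjusted p = 0.00325, limma), a 1.55-fold signal. Against GFP, NR4A1 WT differed by 0.16 (SE 0.10, adjusted p = 0.407, limma). The fall with NR4A1 CEAA did not pass without GFP replicate 2 (adjusted p = 0.0667), GFP replicate 3 (0.0758), NR4A1 CEAA replicate 1 (0.0768) or NR4A1 CEAA replicate 2 (0.173), nor in Rank Product (q = 0.144), which also did not call NR4A1 WT against NR4A1 CEAA (q = 0.106). The last probe set, 233705_at, read 3.27 to 3.50 and passed in no comparison. The PACSIN2 probe sets thus shared a higher level with NR4A1 WT than with NR4A1 CEAA in 2 of 3, and differed in which NR4A1 form departed from GFP.

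Counted over the 15 partner probe sets, few passed. NR4A1 WT against GFP gave 1 higher and 0 lower (limma, adjusted p under 0.05), against 5.06% of all probe sets called higher and 5.56% called lower, with 2 higher and 1 lower at an unadjusted p under 0.05. NR4A1 CEAA against GFP gave 0 higher and 1 lower, against 5.91% of all called higher and 6.81% called lower, with 0 higher and 2 lower at an unadjusted p under 0.05. NR4A1 WT against NR4A1 CEAA gave 3 higher and 0 lower, against 11.2% of all called higher and 10.9% called lower, with the same counts at an unadjusted p under 0.05. With 15 probe sets, counts of 0 or 1 are near those shares, and the 3 calls between the NR4A1 forms belong to 2 genes. Rank Product called 0 of the 15 in every comparison.

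The median partner difference was 0.07 for NR4A1 WT against GFP, -0.06 for NR4A1 CEAA against GFP and 0.06 for NR4A1 WT against NR4A1 CEAA, and the medians over all probe sets were 0.0014, -0.0089 and 0.017. NR4A1 WT arrays lay above all GFP arrays in 3 partner probe sets and below them in 1, against 13.5% and 13.8% of all probe sets. NR4A1 CEAA arrays lay above all GFP arrays in 2 and below them in 4, against 22.4% and 23.9% of all. NR4A1 WT arrays lay above all NR4A1 CEAA arrays in 3 and below them in 2, against 25.0% and 22.2% of all. These counts of the 15 are near the shares over all probe sets.

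**Figure D2:**
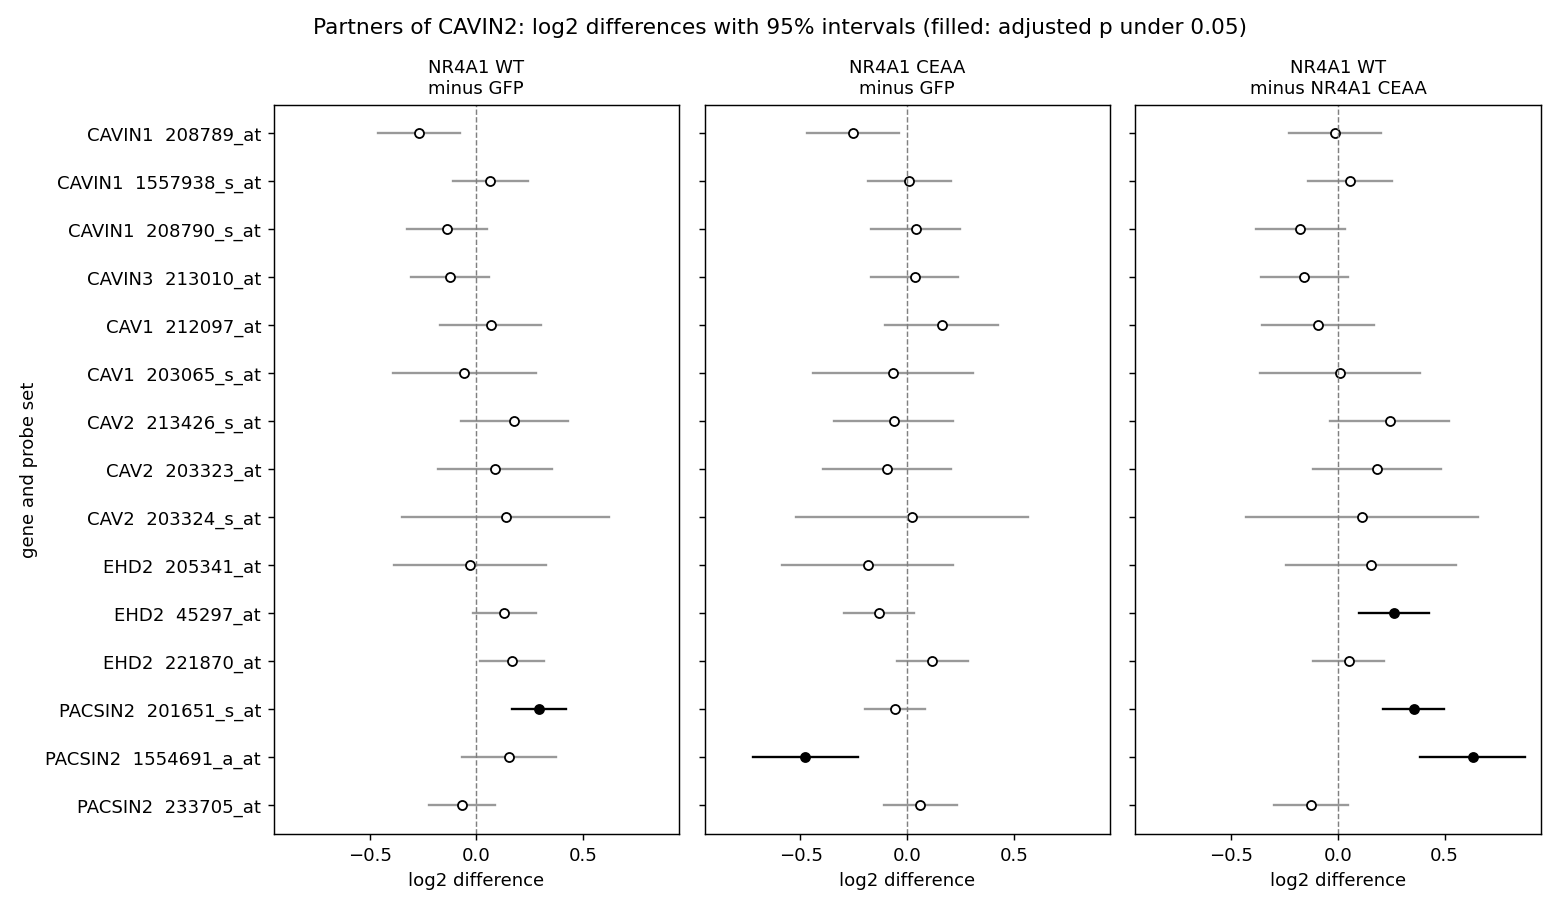
Log2 differences (horizontal axis) of the 15 partner probe sets (rows) in the 3 comparisons, with bars for 95% intervals and filled points for adjusted p under 0.05 in limma. The filled points are PACSIN2 201651_s_at at 0.30 for NR4A1 WT minus GFP, PACSIN2 1554691_a_at at -0.48 for NR4A1 CEAA minus GFP, and EHD2 45297_at and both of these PACSIN2 probe sets at 0.26 to 0.63 for NR4A1 WT minus NR4A1 CEAA.

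The relatives of the members showed a larger change than the partners themselves, in EHD4. EHD4 is a membrane-remodeling ATPase of the EHD2 family that works on endosomes and can also be found at caveolae. Probe set 229074_at read 4.54, 4.65 and 4.93 with NR4A1 WT, 6.59 and 6.78 with NR4A1 CEAA, and 6.20, 6.22 and 6.10 with GFP. It fell by 1.47 with NR4A1 WT against GFP (SE 0.11, adjusted p = 5.48e-05, limma) and was 0.51 higher with NR4A1 CEAA than with GFP (SE 0.12, adjusted p = 0.0246, limma). The rise with NR4A1 CEAA did not pass in limma when any of the GFP arrays (adjusted p = 0.0610, 0.0540 and 0.0790 without replicates 1, 2 and 3) or either NR4A1 CEAA array (0.0759 and 0.183 without replicates 1 and 2) was left out. The groups did not overlap.

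EHD4 probe set 209536_s_at also fell with NR4A1 WT. It read 6.27, 6.44 and 6.38 with NR4A1 WT, 7.63 and 7.69 with NR4A1 CEAA, and 7.54, 7.56 and 7.71 with GFP, a difference of -1.24 between NR4A1 WT and GFP (SE 0.07, adjusted p = 2.08e-05, limma). NR4A1 CEAA differed from GFP by 0.06 there (adjusted p = 0.713). The 5 other EHD4 probe sets read 2.88 to 4.93 and passed in no comparison, so EHD4 moved in its 2 bright probe sets.

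PACSIN3, the relative of PACSIN2 found in muscle caveolae, had 1 probe set, 218744_s_at. It read 6.33, 6.42 and 6.40 with NR4A1 WT, 6.47 and 6.69 with NR4A1 CEAA, and 6.77, 6.70 and 6.91 with GFP. NR4A1 WT lay below GFP in every array, by -0.41 (SE 0.08, adjusted p = 0.0147, limma), a call lost without GFP replicate 3 (-0.35, adjusted p = 0.0566). Together with CAV3, CAVIN4, EHD1, EHD3 and PACSIN1, whose probe sets passed in no comparison, these relatives make a list of 7 genes and 20 probe sets. Of the 20, 0 were higher and 3 lower with NR4A1 WT against GFP (median -0.14), 1 was higher and 0 lower with NR4A1 CEAA against GFP (median 0.0013), and 0 were higher and 2 lower with NR4A1 WT against NR4A1 CEAA (median -0.17). At an unadjusted p under 0.05 the counts were 2 higher and 6 lower, 2 and 0, and 2 and 5, and by Rank Product 0 and 2, 0 and 0, and 0 and 2, in the same order of comparisons. Over all probe sets the shares called higher and lower were 5.06% and 5.56%, 5.91% and 6.81%, and 11.2% and 10.9% in that order. The 2 lower of 20 between the NR4A1 forms are near that share.

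**Figure D3:**
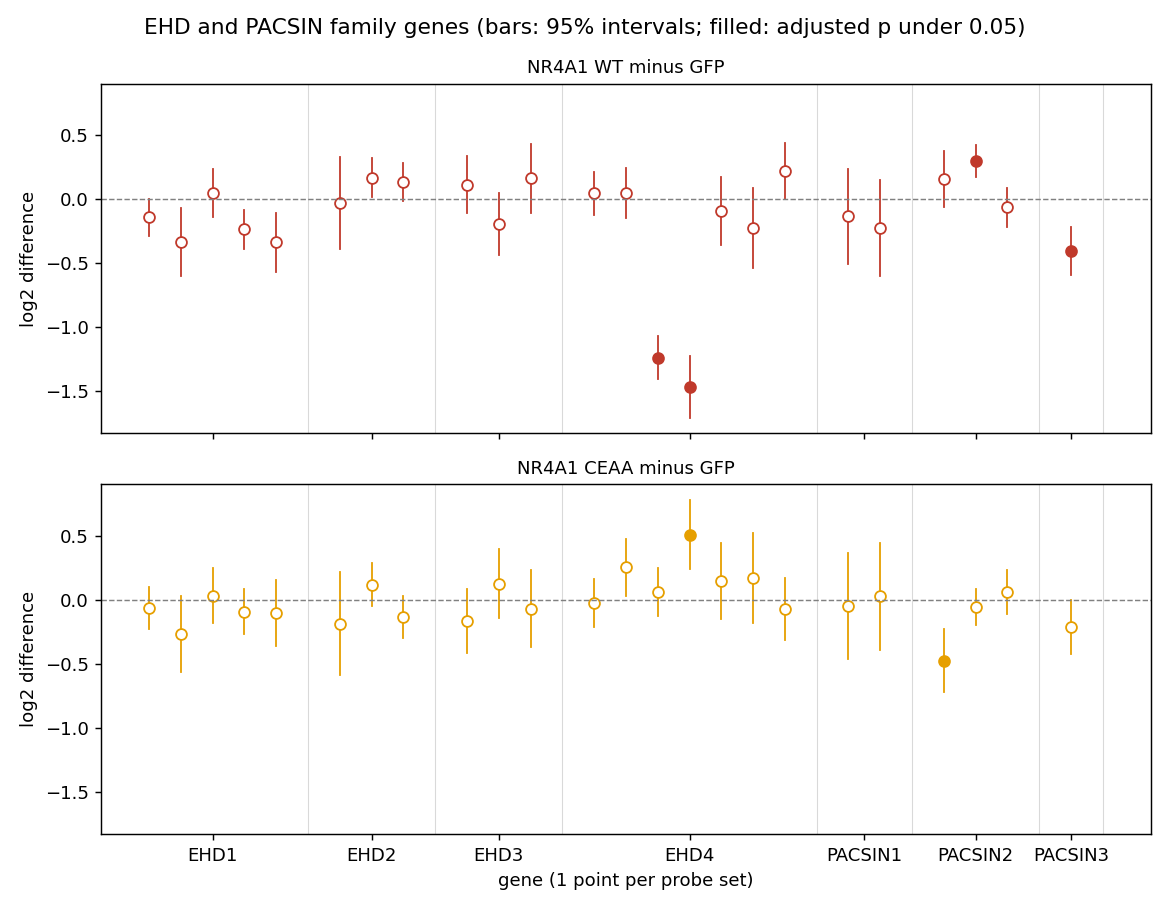
Log2 differences from GFP (vertical axis) of all EHD and PACSIN probe sets (1 point each, grouped by gene), NR4A1 WT above and NR4A1 CEAA below, with bars for 95% intervals and filled points for adjusted p under 0.05 in limma. EHD4 holds the lowest points of the upper panel, at -1.47 and -1.24, and the PACSIN2 point at 0.30 is the filled one above 0 in that panel.

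Among proteins that bud, anchor or signal at caveolae, the kinase that CAVIN2 binds was higher with NR4A1 WT. PRKCA, protein kinase C alpha, had 5 probe sets, of which 3 rose against GFP. Of these, 206923_at read 3.74 to 4.54, inside the dim range, and was 0.49 higher (SE 0.10, adjusted p = 0.0156, limma). Probe set 215195_at read 7.57, 7.76 and 7.40 with NR4A1 WT, 6.61 and 6.74 with NR4A1 CEAA, and 6.62, 6.72 and 6.77 with GFP, with NR4A1 WT apart from the rest. The difference was 0.87 against GFP (SE 0.10, adjusted p = 0.00061, limma) and 0.90 against NR4A1 CEAA (SE 0.11, adjusted p = 0.000537, limma). In PRKCA 213093_at the mutant was higher than GFP as well, by 0.39 (SE 0.07, adjusted p = 0.00954, limma), beside 0.50 for NR4A1 WT (SE 0.06, adjusted p = 0.00132, limma). The NR4A1 forms did not differ past the test in that probe set (0.11, adjusted p = 0.345, limma). The mutant's call there was lost without either NR4A1 CEAA array (adjusted p = 0.0658 and 0.0810 without replicates 1 and 2).

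RALA, a small GTPase that with filamin A takes part in caveola trafficking, rose in both of its probe sets. Probe set 214435_x_at read 10.10, 9.92 and 9.86 with NR4A1 WT, 9.66 and 9.49 with NR4A1 CEAA, and 9.42, 9.38 and 9.38 with GFP. NR4A1 WT was 0.57 above GFP (SE 0.08, adjusted p = 0.0023, limma) and NR4A1 CEAA 0.18 (SE 0.09, adjusted p = 0.244, limma). In 224880_at NR4A1 WT was 0.40 above GFP (SE 0.06, adjusted p = 0.00278, limma) and NR4A1 CEAA 0.23 (SE 0.07, adjusted p = 0.0563, limma). In each RALA probe set both NR4A1 CEAA arrays lay above all GFP arrays. With PRKCA, the RALA probe sets make the 5 of 32 probe sets of the list (10 of 12 genes measured) that rose with NR4A1 WT against GFP. In that comparison 0 were lower and the median was 0.05 (7 higher and 2 lower at an unadjusted p under 0.05, 1 and 0 by Rank Product). Over all probe sets 5.06% were higher and 5.56% lower. Probe sets with the ending _x_at can bind related sequences of other genes.

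FYN, a Src family kinase that phosphorylates CAV1, was lower with NR4A1 CEAA against GFP in 2 of 5 probe sets, and DNM2 in 1 of 3. The other FYN probe sets differed by -0.02 to 0.05 and did not pass. FYN 216033_s_at read 6.64, 6.83 and 6.76 with NR4A1 WT, 6.09 and 6.03 with NR4A1 CEAA, and 6.64, 6.60 and 6.86 with GFP, a fall of 0.64 for NR4A1 CEAA against GFP (SE 0.10, adjusted p = 0.00451, limma). DNM2, the dynamin that cuts caveolae from the membrane, differed by -0.36 with NR4A1 CEAA against GFP in 202253_s_at (adjusted p = 0.0191, limma), which did not pass without GFP replicate 1 (0.0509) or 2 (0.0608) or without NR4A1 CEAA replicate 1 (0.116) or 2 (0.111). In this list 1 probe set was higher and 3 lower with NR4A1 CEAA against GFP (median -0.06), and 6 were higher and 0 lower with NR4A1 WT against NR4A1 CEAA (median 0.13, 12 higher and 0 lower at an unadjusted p under 0.05, 1 and 0 by Rank Product). Over all probe sets 5.91% were higher and 6.81% lower with NR4A1 CEAA against GFP, and 11.2% and 10.9% with NR4A1 WT against NR4A1 CEAA.

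The flotillins and the other genes listed as scaffolds of rafts, which are cholesterol-rich membrane, went both ways. FLOT1, flotillin 1, fell with NR4A1 CEAA against GFP in 3 of 4 probe sets, by up to 0.67 in 208748_s_at (SE 0.09, adjusted p = 0.00322, limma), with values of 6.20, 6.40 and 6.36 with NR4A1 WT, 5.70 and 5.53 with NR4A1 CEAA and 6.28, 6.20 and 6.36 with GFP. ERLIN1, a prohibitin-domain protein of the endoplasmic reticulum, fell with NR4A1 WT against GFP in both of its probe sets, by 0.60 in 202444_s_at (SE 0.09, adjusted p = 0.00353, limma) and by 0.53 in 202441_at (SE 0.07, adjusted p = 0.00119, limma). Of the list's 18 probe sets (7 genes), 0 were higher and 4 lower with NR4A1 WT against GFP (median -0.02, 3 and 5 at an unadjusted p under 0.05, 0 and 1 by Rank Product), 2 higher and 4 lower with NR4A1 CEAA against GFP (median -0.02), and 4 higher and 5 lower with NR4A1 WT against NR4A1 CEAA (median 0.03). The shares of all probe sets higher and lower were 5.06% and 5.56%, 5.91% and 6.81%, and 11.2% and 10.9% in these comparisons.

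Clathrin forms the other main coated pit of the membrane. Of 39 probe sets of 13 clathrin and adaptor genes, 2 were higher and 0 lower with NR4A1 WT against GFP (median 0.08, 8 and 1 at an unadjusted p under 0.05), 2 higher and 15 lower with NR4A1 CEAA against GFP (median -0.16), and 18 higher and 4 lower with NR4A1 WT against NR4A1 CEAA (median 0.25). The shares of all probe sets higher and lower were 5.06% and 5.56%, 5.91% and 6.81%, and 11.2% and 10.9% in these comparisons. PICALM, a clathrin assembly protein, fell with NR4A1 CEAA against GFP in 3 of 5 probe sets, by 1.03 in 215236_s_at (SE 0.11, adjusted p = 0.00119, limma). Its 2 others did not pass, at 0.13 in 212506_at (adjusted p = 0.289) and 0.25 in 212511_at (adjusted p = 0.128, limma). These are the 2 probe sets of the list that were higher with NR4A1 WT against GFP. Each differed by 0.44 there (adjusted p = 0.00217 in 212506_at and 0.0106 in 212511_at, limma). AP2M1, the cargo-binding subunit of the adaptor complex, fell by 0.69 (SE 0.09, adjusted p = 0.00228, limma). FCHO2, an F-BAR protein like PACSIN2 that starts clathrin pits, was 0.68 higher with NR4A1 CEAA than with GFP in the dim probe set 1555153_s_at (SE 0.11, adjusted p = 0.00524, limma), a call lost without NR4A1 CEAA replicate 2 (adjusted p = 0.0549). Rank Product called fewer in each of these lists, for clathrin 0 in either direction with NR4A1 WT against GFP, 4 lower with NR4A1 CEAA against GFP and 3 higher with NR4A1 WT against NR4A1 CEAA.

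Genes with the pattern most like that of CAVIN2 were sought among 19768 genes outside the 7, each by its brightest probe set. Each array was set relative to the gene's GFP mean, and likeness to CAVIN2 222717_at was the root mean square of the 8 array differences on the log2 scale. The nearest were ENO3, muscle enolase (0.182), C3orf80 (0.204), SYT1, the calcium sensor of synaptic vesicles (0.212), ADAMTS15, an extracellular protease (0.267), and TREM2, a myeloid lipid receptor (0.270). The other CAVIN2 probe set was farther, at 0.865. ENO3 204483_at read 9.04, 9.20 and 9.12 with NR4A1 WT, 5.73 and 5.85 with NR4A1 CEAA, and 5.95, 5.88 and 6.13 with GFP. The mean distance of NR4A1 WT from GFP ran from 3.13 in ENO3 to 3.48 in TREM2. The mean distance of NR4A1 CEAA from GFP ran from -0.60 in TREM2 to 0.12 in ADAMTS15, with CAVIN2 at -0.25.

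**Figure D4:**
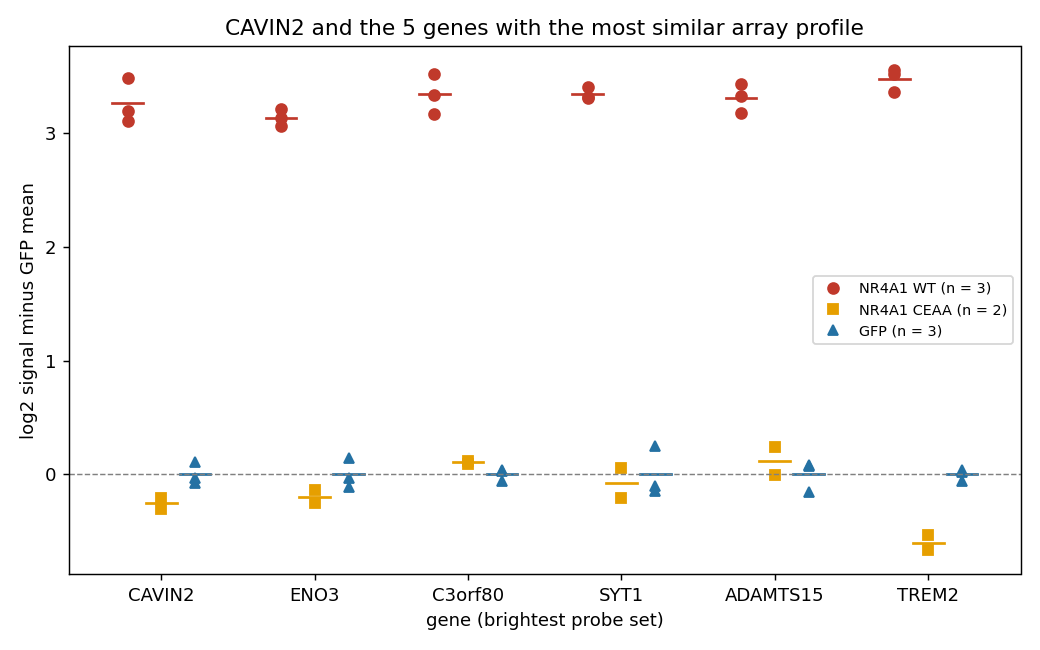
Log2 signal minus the gene's GFP mean (vertical axis) for CAVIN2 and the 5 genes nearest to it (horizontal axis), 1 point per array with lines at group means. The NR4A1 WT points of all 6 genes lie near the 3.26 of CAVIN2, and TREM2 stands apart with NR4A1 CEAA at -0.60.

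Markers of other cell types that hold CAVIN2 or caveolae were counted beside it. Of 20 megakaryocyte and platelet probe sets (9 of 10 genes), 0 passed in either direction with NR4A1 WT against GFP in limma, with 1 higher and 2 lower at an unadjusted p under 0.05 and 0 in Rank Product. Their mean level per array, over the brightest probe set of each gene, was 4.66 to 4.77 with NR4A1 WT, 4.71 to 4.72 with NR4A1 CEAA and 4.72 to 4.83 with GFP. Over these genes single arrays ran from 3.03 in PPBP, a platelet chemokine, to 6.58 in GP9, a platelet adhesion receptor subunit.

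Of 17 endothelial probe sets (8 genes), 0 passed with NR4A1 WT against GFP in limma, with 2 higher and 0 lower at an unadjusted p under 0.05 and 0 in Rank Product. Their mean level was 4.40 to 4.54 with NR4A1 WT, 4.32 to 4.44 with NR4A1 CEAA and 4.42 to 4.50 with GFP. CDH5, the cadherin of endothelial junctions, read 3.15 to 3.55 over the 8 arrays. Of 27 fibroblast probe sets 1 was higher and 0 lower in that comparison (2 and 0 at an unadjusted p under 0.05, 0 in Rank Product). The 6 adipocyte and 7 muscle probe sets gave 0 calls, with 0 and 1 at an unadjusted p under 0.05 and 0 in Rank Product. With 5.06% of all probe sets higher and 5.56% lower in this comparison, 0 or 1 call among the 6 to 27 probe sets of each of these 5 cell types is near the background, and the part of such cells in the CAVIN2 values was not tested.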

How the data were processed

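Total RNA of Kasumi-1 cells was measured on human U133 Plus 2.0 arrays (Affymetrix), 1 per sample (3 NR4A1 WT, 2 NR4A1 CEAA, 3 GFP). The deposited log2 values were made by the authors with Robust Multiarray Analysis in RMA Express (version not given in the sources used here), which subtracts background, equalizes the arrays by quantiles and joins a set's probes into 1 value. They ran from 2.29 to 14.97. Arrays have no count depth, and their number limits the precision.

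Probe sets were named from the platform annotation: 41091 of 54613 had 1 gene symbol, 1801 several and 11721 none. No member gene was on a probe set with several symbols. One linear model over all probe sets and the 3 groups was fitted with limma 3.58.1 in R 4.3.3 (lmFit, eBayes, no covariates, 8.69 degrees of freedom), with Benjamini-Hochberg adjustment over all 54613 and a threshold of 0.05. NR4A1 WT and NR4A1 CEAA share the GFP arrays as control. Intervals are 95% and come from that fit. The code was tested on simulated data.

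Named genes are the 7 members, up to 4 genes per list and comparison with the largest difference past the test, and the 5 nearest to CAVIN2. The members and lists were chosen with earlier results of these data known. Alternatives were a trend in eBayes, array weights, a filter on dim probe sets, only the arrays of the compared pair, quantile normalization again, median centering, 1 probe set per gene, the replicate number as a block, Rank Product (100 permutations), a threshold of 0.01 and leaving out each array. For the lists they were added after the values were seen. Promoter sequences are from RefSeq (GRCh38.p14).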

Additional observations from a re-analysis of the deposited data

Results flagged for a closer look

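The results here are probe sets on which NR4A1 WT and NR4A1 CEAA acted differently relative to GFP. All differences are NR4A1 WT minus NR4A1 CEAA on the log2 scale, with adjusted p from limma, and the GFP arrays are shared by both.

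For CAVIN2 the difference was 3.51 in 222717_at and 2.11 in 218711_s_at. Every NR4A1 WT array lay above and every NR4A1 CEAA array below the GFP mean, and the difference was not tested, because CAVIN2 was chosen by its rise with NR4A1 WT. Among its partners the difference itself passed the test in EHD2 45297_at (0.26, adjusted p = 0.0302) and in PACSIN2 201651_s_at (0.35, adjusted p = 0.00361) and 1554691_a_at (0.63, adjusted p = 0.00325). The EHD2 call was lost without GFP replicate 1 (adjusted p = 0.0509), NR4A1 WT replicate 2 (0.0536) or 3 (0.0778), or NR4A1 CEAA replicate 1 (0.0819) or 2 (0.191).

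In the pathway lists EHD4 229074_at had the lowest value (-1.98, adjusted p = 2.03e-05). Of the signaling and budding proteins, PRKCA 215195_at (0.90, adjusted p = 0.000537), FYN 216033_s_at (0.69, adjusted p = 0.00124), RALA 214435_x_at (0.39, adjusted p = 0.0149) and DNM2 202253_s_at (0.34, adjusted p = 0.0135) were higher with NR4A1 WT. RALA 224880_at did not pass (0.17, adjusted p = 0.0982), nor did the brightest PRKCA probe set, 213093_at (0.11, adjusted p = 0.345). Counted by gene, 2 of 5 PRKCA, 2 of 5 FYN, 1 of 3 DNM2 and 1 of 2 RALA probe sets passed. Rank Product did not call FYN 216033_s_at (q = 0.0703), RALA 214435_x_at (q = 0.493) or DNM2 202253_s_at (q = 0.631). The DNM2 call was lost without NR4A1 CEAA replicate 1 (adjusted p = 0.0816) or 2 (0.0798), and the RALA call without NR4A1 CEAA replicate 2 (0.132).

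Raft proteins went both ways. Counted by gene, 3 of 4 FLOT1, 2 of 3 STOM and 1 of 3 ERLIN2 probe sets passed. Rank Product did not call ERLIN1 202441_at (q = 0.113), ERLIN2 221543_s_at (q = 0.405) or STOM 201061_s_at (q = 0.532). For this comparison FLOT1 208748_s_at, STOML2 215416_s_at, STOM 201060_x_at and ERLIN1 202444_s_at were not followed individually under the alternatives. FLOT1 208748_s_at (0.71, adjusted p = 0.000843), FLOT1 208749_x_at (0.85, adjusted p = 0.000283) and STOML2 215416_s_at (0.28, adjusted p = 0.0378) were higher with NR4A1 WT. STOM 201060_x_at (-0.26, adjusted p = 0.044), STOM 201061_s_at (-0.44, adjusted p = 0.00136), ERLIN1 202441_at (-0.91, adjusted p = 7.89e-05), ERLIN1 202444_s_at (-0.40, adjusted p = 0.0225) and ERLIN2 221543_s_at (-0.52, adjusted p = 0.00158) were lower.

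Among clathrin genes PICALM 215236_s_at (1.33, adjusted p = 9.77e-05), PICALM 212506_at (0.31, adjusted p = 0.0114) and AP2M1 200613_at (0.94, adjusted p = 0.000159) were higher with NR4A1 WT. So were AP2S1 208074_s_at (0.72, adjusted p = 0.000361) and CLTB 206284_x_at (0.63, adjusted p = 0.000754), while FCHO2 1555153_s_at (-0.82, adjusted p = 0.000785) was lower. Counted by gene, 4 of 5 PICALM and 3 of 4 CLTB probe sets passed. Rank Product did not call AP2S1 208074_s_at (q = 0.0552) or FCHO2 1555153_s_at (q = 0.159). For this comparison PICALM 212506_at and CLTB 206284_x_at were not followed individually under the alternatives.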

How the results depend on the processing

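Of 791 recomputed member differences that had a test, 739 kept their direction and their side of the threshold, 20 lost the call, 4 gained it and 28 changed sign, of which 0 had been called. The 70 recomputed CAVIN2 differences in comparisons with NR4A1 WT, described without a test, kept their sign. Of the partner probe sets, the 1 higher with NR4A1 WT against GFP became 0 in Rank Product. The 0 lower became 1 (CAVIN1 208789_at) with the filter on dim probe sets, with 1 probe set per gene and without NR4A1 WT replicate 3 (0 to 1 over the arrays left out). The 1 lower with NR4A1 CEAA against GFP became 0 with 1 probe set per gene, the replicate block, Rank Product and the threshold of 0.01, and ran from 0 to 1 over the arrays left out. The 3 higher with NR4A1 WT against NR4A1 CEAA became 2 with the trend in eBayes, with only the arrays of that pair, with the replicate block and at the threshold of 0.01, 1 with 1 probe set per gene and 0 in Rank Product, and ran from 2 to 4 over the arrays left out. The causes of these changes were not tested. Both the filter and 1 probe set per gene test fewer probe sets. The latter keeps only the brightest of each gene, which leaves out EHD2 45297_at and PACSIN2 1554691_a_at.

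The sign changes concerned small differences. Over the arrays left out, NR4A1 WT minus GFP ran from -0.19 to 0.11 in CAV1 203065_s_at, -0.0011 to 0.17 in CAV1 212097_at, -0.030 to 0.16 in CAV2 203323_at, -0.16 to 0.31 in CAV2 203324_s_at and -0.18 to 0.13 in EHD2 205341_at. NR4A1 CEAA minus GFP ran from -0.018 to 0.057 in CAVIN1 1557938_s_at (-0.010 with quantile normalization again, -0.011 with median centering), -0.24 to 0.10 in CAV1 203065_s_at, -0.022 to 0.058 in CAV2 203324_s_at (-0.055 with the replicate block) and -0.077 to 0.15 in CAVIN3 213010_at. With the block CAV2 213426_s_at came to 3.5e-05. NR4A1 WT minus NR4A1 CEAA ran from -0.16 to 0.18 in CAV1 203065_s_at (-0.0063 with quantile normalization again, -0.055 with the block), -0.16 to 0.011 in CAV1 212097_at, -0.19 to 0.29 in CAV2 203324_s_at and -0.088 to 0.052 in CAVIN1 208789_at (0.025 with quantile normalization again, 0.014 with median centering).

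Samples with the same replicate number did not deviate together over all probe sets (correlations of -0.03 to 0.06). This cannot show whether they shared an electroporation or a batch. With the number as a block, PACSIN2 1554691_a_at lost its fall with NR4A1 CEAA (-0.43, adjusted p = 0.0634) and EHD2 45297_at its difference between the NR4A1 forms (adjusted p = 0.0928). In the pathway lists 0 of 32 named differences reversed, 19 were not called by Rank Product, and 7 and 8 were lost without NR4A1 CEAA replicate 1 and 2, where the lone mutant array is assumed to vary like the other groups. With 10 of 17 member probe sets in the dim range, the levels of CAV1, CAV2 and CAVIN3 were not shown to be above background.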
